A study of Mus musculus with 2 samples.

Results

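Leukocytes leave blood vessels by binding adhesion molecules on the endothelium, and 8 genes of that system were followed in single cells of mouse skin. Of these, 4 encode endothelial ligands, namely E-selectin (Sele), P-selectin (Selp), ICAM-1 (Icam1) and VCAM-1 (Vcam1). The other 4 encode leukocyte partners, namely the P-selectin glycoprotein ligand PSGL-1 (Selplg), the integrin chains alpha L (Itgal) and beta 2 (Itgb2), and the integrin chain alpha 4 (Itga4). They were taken by symbol, with earlier results of these data known, and are 8 of the 55353 gene symbols in the deposited tables, each present there as 1 entry. Dorsal skin of 7-week-old C57BL/6 mice was profiled by single-cell 3' RNA sequencing. Mice received either Shi-Bi-Man, a natural product preparation, together with imiquimod (SBM library), or imiquimod alone (IMQ library). Both groups therefore carry imiquimod, a Toll-like receptor 7 agonist that is applied to mouse skin as a model of psoriasis, and no skin without imiquimod was analysed here. The study's title places Shi-Bi-Man against endothelial activation, the state in which vessels display these ligands. Each condition is 1 library, and the labels do not say how many mice each holds, so no difference between the libraries has a replicate check and no test was possible. Every interval given is a 95% interval that covers counting error only.

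E-selectin and P-selectin are lectins that catch flowing leukocytes. Both bind sialylated, fucosylated sugars, and PSGL-1 on leukocytes is the best known carrier of those sugars. P-selectin is stored in endothelial granules with von Willebrand factor and is also carried by platelets. E-selectin is made when cytokines reach the vessel. Rolling cells then arrest through integrins: alpha L with beta 2 forms LFA-1, which binds ICAM-1, and alpha 4 with beta 1 (Itgb1) forms VLA-4, which binds VCAM-1. In skin and other tissues these steps take place mainly in venules after the capillary bed.

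The SBM library held 8054 barcodes and 20837259 counts and the IMQ library 11316 barcodes and 28920316 counts, of which 7863 and 11019 barcodes were retained, with medians of 1780 counts in SBM and 1616 counts in IMQ. The 2 libraries shared 49 barcode sequences. The doublet caller marked 83 SBM barcodes and 0 IMQ barcodes, which means that it did not work in the IMQ library, so doublets remain there. Levels are given as CPM, counts of a gene per 1000000 counts of the same cells. Ratios between libraries are given as log2 of SBM over IMQ, and a gene is called higher or lower past 1.5-fold where it had at least 20 counts in the cells compared.

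Cells were grouped by expression without the 8 genes and 5 lists of related genes, and groups were named from marker lists. Blood endothelial-like cells numbered 248 in SBM (3.15% of cells) and 498 in IMQ (4.52%), and all 12 endothelial markers were at least 2-fold higher in them than in other cells. Within them, venular-like cells (58 in SBM, 71 in IMQ) had 7 of 10 venular markers at least 2-fold higher, arterial-like cells (24 and 52) had 11 of 12 arterial markers and angiogenic tip-like cells (51 and 198) had 8 of 8 tip markers at that level. Sub-cluster 0 (93 and 80 cells), led by Cxcl9, Cd36 and Fabp4, had 4 of 10 venular markers at the level needed for a name (Ackr1, Nr2f2, Lrg1 and Lifr). It stayed unnamed because its leading genes held capillary markers (Cd36 and Fabp4) and no venular ones. Sub-cluster 1 (18 and 47 cells), led by Sectm1b and Fkbp5, stayed unnamed because it had only 1 such venular marker (Ackr1), where a name needed 3. T and NK cell-like cells numbered 510 in SBM (6.49%) and 2522 in IMQ (22.9%), and macrophage and monocyte-like cells 762 (9.69%) and 1591 (14.4%). All 12 markers of each of these classes were at least 2-fold higher in them than in other cells. No cluster was named as neutrophils, dendritic cells or B cells. Cluster 14 (66 and 591 cells) had 7 of 9 Langerhans cell markers at least 2-fold higher, but its 10 leading genes, headed by H2-M5, H2-M2, P2rx2 and Cd207, held 2 dendritic cell markers (Ccl22 and H2-DMb2) and 1 Langerhans cell marker (Cd207), and it is called by its number.

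In the GENCODE vM21 annotation of GRCm38, Sele (chr1:164048234-164057677) and Selp (chr1:164115264-164150026) lie on the plus strand with 57586 bases between them. Icam1 lies at chr9:21015985-21028817 on the plus strand, Vcam1 at chr3:116109949-116129688 on the minus strand, Selplg at chr5:113818536-113832644 on the minus strand, Itgal at chr7:127296260-127335138 on the plus strand, Itgb2 at chr10:77530252-77565708 on the plus strand and Itga4 at chr2:79255426-79333123 on the plus strand. All are protein-coding genes. Genes on the opposite strand overlap 4 of them, and the labels do not say whether counting used strand, so reads could be shared there. Over all retained cells these held few counts in SBM and IMQ: Gm16587 0 and 10 and Gm16548 6 and 9 (both over Selp), Gm47079 48 and 65 (Icam1), Gm43109 0 and 1 (Vcam1) and Cerkl 20 and 33 (Itga4). The 250 bases before the RefSeq start (GRCm38.p6) were at hand for 4 of the 8 genes. Those of the selectin pair and Icam1 are shown because Sele and Icam1 are known in human endothelium as targets of cytokine signalling through NF-kappa B, and because Selp had nearly the same cell-type pattern as Sele here. Capitals mark matches to the motifs described after them.
Sele promoter, chr1:164047984-164048233, plus strand: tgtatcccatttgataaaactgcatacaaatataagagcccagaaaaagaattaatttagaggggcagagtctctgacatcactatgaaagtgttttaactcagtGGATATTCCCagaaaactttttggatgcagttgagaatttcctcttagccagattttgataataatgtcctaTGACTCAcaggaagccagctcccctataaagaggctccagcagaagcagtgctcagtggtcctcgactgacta
Selp promoter, chr1:164115014-164115263, plus strand: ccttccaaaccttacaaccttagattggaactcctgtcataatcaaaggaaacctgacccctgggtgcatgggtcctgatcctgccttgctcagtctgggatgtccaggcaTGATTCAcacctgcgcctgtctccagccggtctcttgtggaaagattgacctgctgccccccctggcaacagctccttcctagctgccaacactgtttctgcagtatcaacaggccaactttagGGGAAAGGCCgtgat
Icam1 promoter, chr9:21015690-21015939, plus strand: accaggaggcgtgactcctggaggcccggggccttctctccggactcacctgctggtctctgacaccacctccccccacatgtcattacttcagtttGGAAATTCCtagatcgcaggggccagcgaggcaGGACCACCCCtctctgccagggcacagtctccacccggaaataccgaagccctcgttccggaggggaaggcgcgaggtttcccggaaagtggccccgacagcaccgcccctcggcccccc

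Both strands were searched for GGGNNNNNCC and GGAANTTCC, 2 shapes of NF-kappa B site, and for TGANTCA, the AP-1 site, and no match overlapped another. The Sele window held GGATATTCCC, which is GGGNNNNNCC on the minus strand, at -145 to -136 from the start, and TGACTCA at -73 to -67. The Selp window held GGGAAAGGCC at -15 to -6 and TGATTCA at -139 to -133. The Icam1 window held GGAAATTCC at -153 to -145 and GGACCACCCC, a minus-strand match to GGGNNNNNCC, at -120 to -111. The Itga4 window held no match. Of 32851 RefSeq promoter windows of the same length, 45.8% held GGGNNNNNCC, 0.813% GGAANTTCC and 6.75% TGANTCA, so that a match to the first was common and one to the second, as in Icam1, rare. Factor binding was not measured, and the matches describe sequence only.

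Selectin counts lay almost wholly in blood vessels, whereas counts of the other ligands were spread over more cell types. Blood endothelial-like cells held 91.4% of all Sele counts in SBM and 90.6% in IMQ, and 88.0% (SBM) and 89.1% (IMQ) of all Selp counts, from 2.02% (SBM) and 4.15% (IMQ) of all counts. By contrast, the largest share of Icam1 counts lay in fibroblast-like cells (49.2% in SBM, 35.0% in IMQ), followed by keratinocyte-like cells (26.6% and 19.7%) and blood endothelial-like cells (7.48% and 18.5%). Vcam1 divided mainly between fibroblast-like cells (63.2% in SBM, 52.8% in IMQ) and blood endothelial-like cells (17.6% and 34.5%). Among the partners, Selplg counts lay in T and NK cell-like cells (41.4% in SBM, 53.7% in IMQ) and macrophage and monocyte-like cells (36.6% and 22.8%). Itgal was the most lymphoid of the 4, with 65.9% (SBM) and 72.2% (IMQ) of its counts in T and NK cell-like cells. Itgb2 and Itga4 were mainly myeloid, with 61.7% (SBM) and 47.0% (IMQ) of Itgb2 and 43.3% (SBM) and 51.4% (IMQ) of Itga4 in macrophage and monocyte-like cells. These shares follow the number of cells of each class as well as the level per cell.

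**Figure D1:**
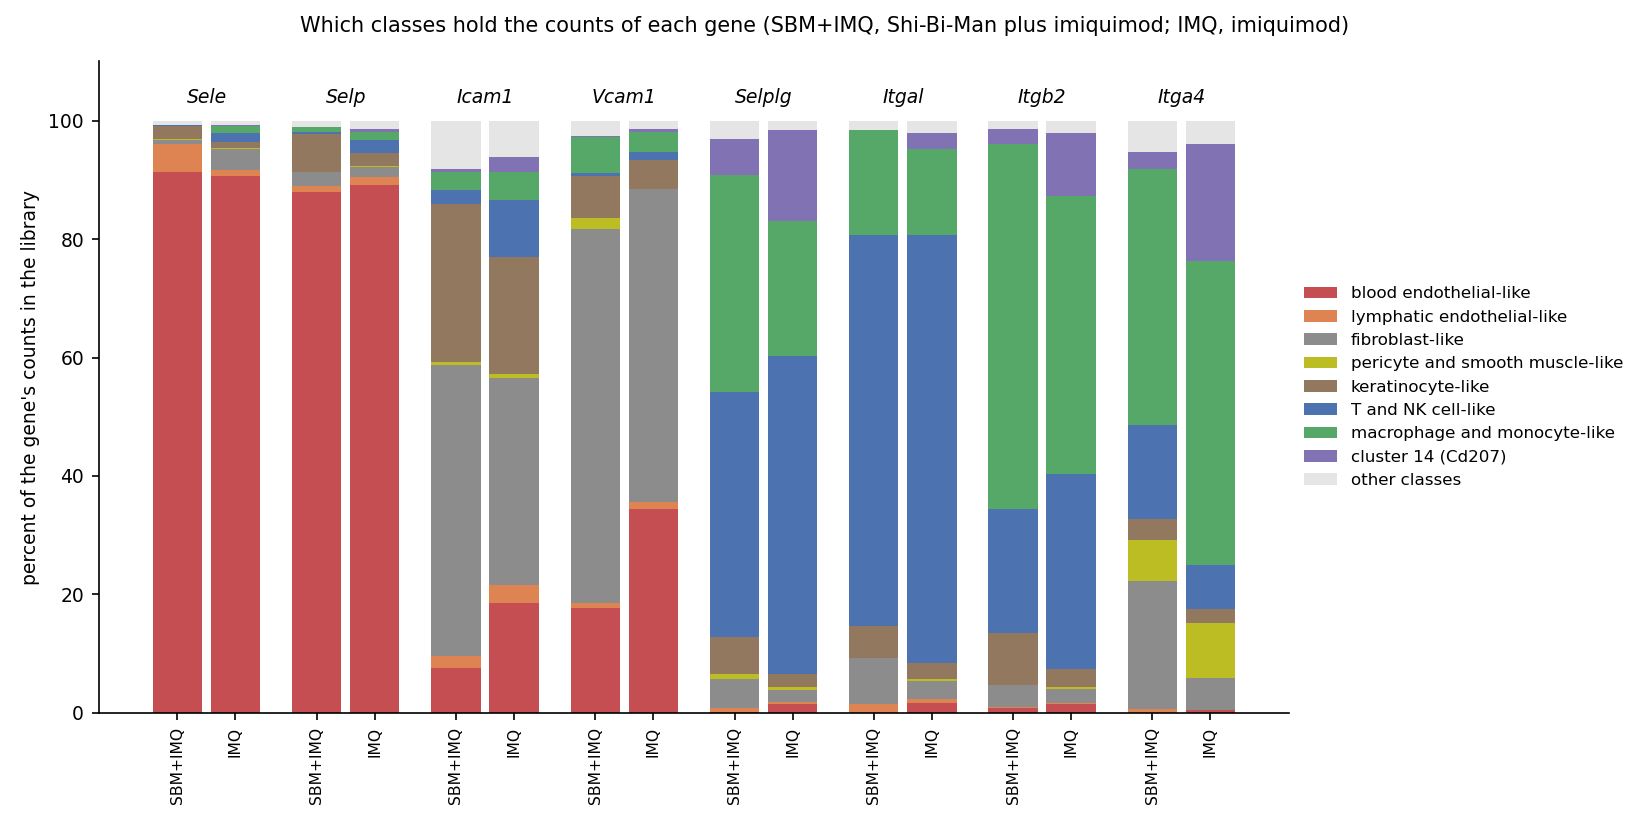
Stacked bars give the percentage of each gene's counts found in each cell class (y axis, percent) for the 8 genes, with the SBM bar left of the IMQ bar. Sele and Selp bars are almost wholly blood endothelial-like (88.0% to 91.4%), Icam1 and Vcam1 bars are led by fibroblast-like cells, and the partner bars are led by T and NK cell-like or macrophage and monocyte-like cells.

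Free RNA sets a floor under such values. In classes that should lack the selectins (keratinocyte-, sebaceous gland- and T and NK cell-like cells) Sele stood at 2.06 to 6.14 CPM in SBM and 2.26 to 10.7 CPM in IMQ, and Selp at 3.62 to 14.3 CPM in SBM and 7.49 to 24.3 CPM in IMQ. In keratinocyte-, sebaceous gland- and fibroblast-like cells, which should lack the leukocyte partners, the highest levels in SBM and IMQ were 5.26 and 16.1 CPM for Selplg, 1.95 and 6.76 CPM for Itgal, 4.63 and 11.4 CPM for Itgb2 and 7.21 and 5.28 CPM for Itga4. Levels within these ranges cannot be told from free RNA.

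Venular-like cells had the highest level of all 4 ligands among classes with at least 50 cells in each library, in both libraries. For Sele their interval overlapped that of sub-cluster 0 in both libraries, whereas for Selp, Icam1 and Vcam1 it lay above the next class of that size. Smaller groups left out of that order had higher values in both libraries, namely arterial-like cells for Vcam1 and sub-cluster 1 for Sele, as given below. Sele reached 3188 CPM in SBM venular-like cells (295 counts, 2835 to 3574) and 3181 CPM in IMQ venular-like cells (444 counts, 2892 to 3491), a log2 ratio of 0.00 (-0.21 to 0.22). E-selectin transcript was level between the libraries within that interval. Selp, the P-selectin gene, reached 9684 CPM in SBM (896 counts, 9060 to 10339) and 6677 CPM in IMQ (932 counts, 6255 to 7120), a log2 ratio of 0.54 (0.40 to 0.67). Icam1 stood at 1351 CPM in SBM and 1655 CPM in IMQ (125 and 231 counts), a log2 ratio of -0.29 (-0.62 to 0.03). Vcam1 was lower, at 757 CPM in SBM (70 counts, 590 to 956) and 1254 CPM in IMQ (175 counts, 1075 to 1454), a log2 ratio of -0.72 (-1.15 to -0.32). The 4 ligands of the same venular-like cells therefore did not share a direction. Of the 4, none was called higher and 1, Vcam1, was called lower, where 16.4% of 2154 measured genes were called higher and 18.2% lower.

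Shares of venular-like cells with a count were taken after each cell was thinned to 500 counts. Selp was found in 82.8% of SBM cells (70.6 to 91.4) and 74.7% of IMQ cells (62.9 to 84.2), and in 89.7% and 81.7% without thinning. Sele was found in 65.5% of SBM cells (51.9 to 77.5) and 52.1% of IMQ cells (39.9 to 64.1). The intervals of the libraries overlapped for both selectins, and for Sele the shares give no order, since its CPM were level. Icam1 was found in 39.7% and 46.5%, and Vcam1 in 19.0% of SBM cells (9.87 to 31.4) and 32.4% of IMQ cells (21.8 to 44.6), again with overlapping intervals. In T and NK cell-like cells, which should lack the selectins, the thinned shares were 0.588% (SBM) and 0.397% (IMQ) for Sele and 0.784% (SBM) and 1.07% (IMQ) for Selp, at median depths of 779 and 1008 counts against 1288 and 1639 counts in venular-like cells. The median venular-like cell held 11.5 Selp counts in SBM and 7 in IMQ, 3 Sele counts in each library, 1 and 2 Icam1 counts and 0 and 1 Vcam1 counts. Counts of all 4 ligands occurred in 31.0% of SBM and 39.4% of IMQ venular-like cells, and of none in 5.17% and 5.63%.

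The venular-like class consisted of a pair of sub-clusters that differed in these ratios. In sub-cluster 5, led by Htr2b and Olr1 (36 SBM and 48 IMQ cells), Selp stood at 7600 CPM in SBM and 7452 CPM in IMQ, a log2 ratio of 0.03 (-0.14 to 0.19). Sele stood there at 2874 CPM in SBM and 3620 CPM in IMQ (-0.33, -0.60 to -0.07), Icam1 at 1335 and 1757 CPM (-0.39, -0.79 to -0.02) and Vcam1 at 989 and 1537 CPM (-0.63, -1.08 to -0.21). In these cells the intervals of Sele, Icam1 and Vcam1 lay below 0, only Vcam1 passed 1.5-fold, and Selp was level. Sub-cluster 5 had fewer than 50 cells in each library, and the share of all genes past 1.5-fold was not computed in it. In sub-cluster 6, led by March3, Mid1, Prkg1 and Pde4d (22 and 23 cells), Selp stood at 14284 CPM in SBM (412 counts) and 4401 CPM in IMQ (156 counts), a log2 ratio of 1.70 (1.43 to 1.97), and Sele at 3883 CPM in SBM (112 counts) and 1890 CPM in IMQ (67 counts), a log2 ratio of 1.03 (0.59 to 1.5). The higher Selp of the SBM venular-like class thus lay in sub-cluster 6, which also had fewer than 50 cells in each library. Its name rested on 3 venular markers (Il1r1, Tll1 and Mctp1), whereas sub-cluster 5 was named by 5 others (Ackr1, Vwf, Nr2f2, Lrg1 and Cpe). In IMQ, 1 cell of sub-cluster 6 held 54.5% of its Selp and 55.2% of its Sele counts, and without that cell the IMQ levels were 2155 and 910 CPM. A Selp count was found in 19 of the 22 SBM and 12 of the 23 IMQ cells of sub-cluster 6, with medians of 15 and 1 counts. IMQ venular-like cells also held 4693 CPM of haemoglobin genes against 10.8 CPM in SBM, and 265 CPM of the 12 T and NK cell markers (11 of 12 with a count) against 54.0 CPM (3 of 12) in SBM. Ptprc, the pan-leukocyte gene, had 0 counts in SBM and 11 in IMQ. Of these 11, 9 lay in sub-cluster 6 and 2 in sub-cluster 5, whereas 641 of the 655 IMQ haemoglobin counts lay in sub-cluster 5. The part of these in the ligand ratios was not tested.

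**Figure D2:**
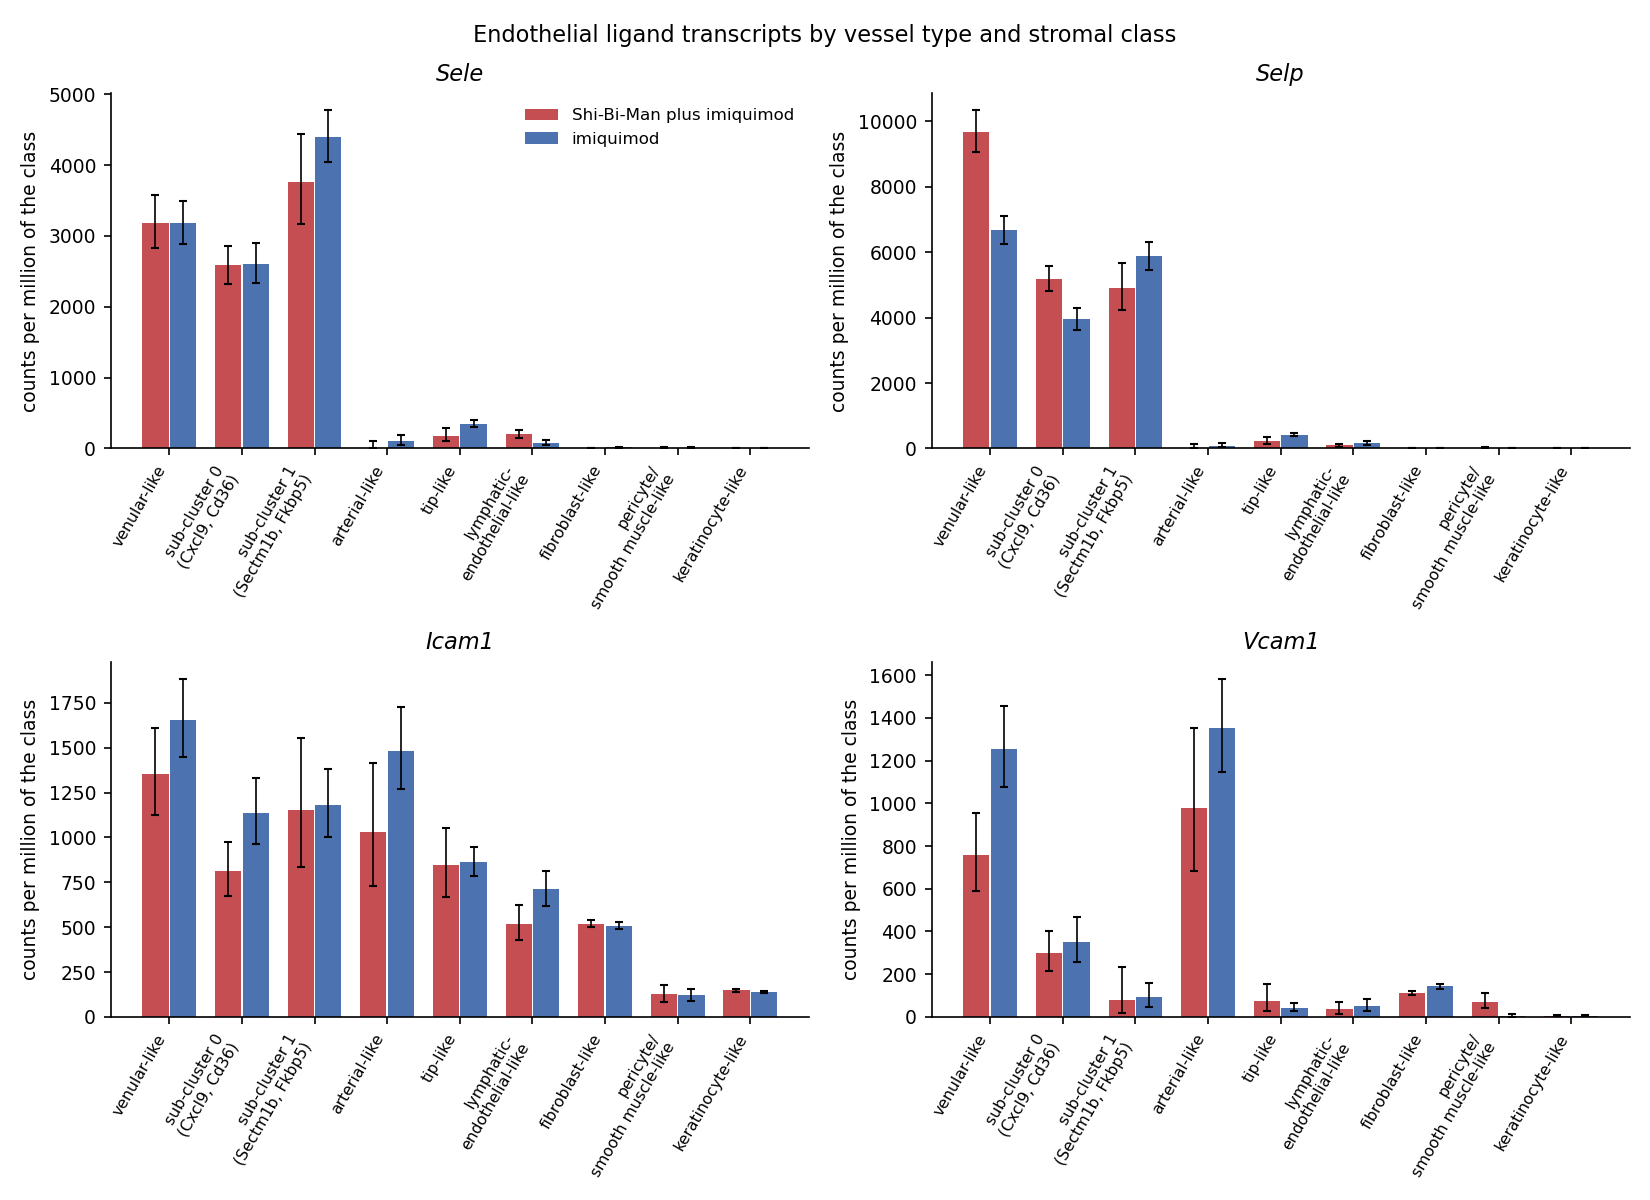
Bars give CPM of each ligand (y axis, 1 panel per gene) in vessel types and in fibroblast-, pericyte and smooth muscle- and keratinocyte-like cells, with SBM bars left of IMQ bars and error bars for the 95% Poisson interval. Selectin bars are tall in venular-like cells and the unnamed sub-clusters 0 and 1 and near 0 in arterial-like cells, where Icam1 and Vcam1 bars are tall.

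Sub-cluster 0, whose leading genes include Cd36 and Fabp4 of fatty acid uptake, was the other selectin-rich group with at least 50 cells in each library. Sele stood at 2585 CPM in SBM and 2608 CPM in IMQ (-0.01, -0.23 to 0.20), and Selp at 5183 CPM in SBM and 3945 CPM in IMQ (0.39, 0.23 to 0.56). Icam1 stood at 815 CPM in SBM and 1136 CPM in IMQ (-0.48, -0.84 to -0.12), and Vcam1 at 299.6 CPM in SBM and 351 CPM in IMQ (-0.23, -0.86 to 0.40). As in venular-like cells, Sele was level and Selp higher in SBM, here with a lower Icam1, and each ratio was below 1.5-fold. Sub-cluster 1, with 18 SBM cells, had 3760 and 4398 CPM of Sele, 4914 and 5877 CPM of Selp and 1155 and 1181 CPM of Icam1 in SBM and IMQ, but only 3 and 12 counts of Vcam1. Vcam1 counts were thus few in these selectin-rich cells in both libraries.

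Arterial-like cells showed the opposite combination, with integrin ligands and few selectin counts. Icam1 stood at 1031 CPM in SBM and 1483 CPM in IMQ (38 and 168 counts) and Vcam1 at 977 CPM in SBM and 1350 CPM in IMQ (36 and 153 counts). Sele had 0 counts in the 24 SBM cells and 12 counts in the 52 IMQ cells, all in 1 cell, and Selp had 1 and 10 counts. With 24 SBM cells these values give no more than the order of magnitude.

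Angiogenic tip-like cells had Icam1 as their main ligand, at 845 CPM in SBM and 863 CPM in IMQ (-0.02, -0.39 to 0.32). Their selectin levels were far below those of venular-like cells. Sele stood at 179.5 CPM in SBM and 349.8 CPM in IMQ, a log2 ratio of -0.92 (-1.77 to -0.24), and Selp at 222 CPM in SBM and 425 CPM in IMQ, -0.91 (-1.66 to -0.29). These SBM values rest on 17 and 21 counts, and 1 cell held 76.2% of the SBM Selp counts. No ligand was found in 49.0% of SBM and 36.4% of IMQ tip-like cells.

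Lymphatic endothelial-like cells (164 in SBM, 154 in IMQ), which line the vessels that drain tissue fluid and leaving leukocytes, had Icam1 at 519 CPM in SBM and 711 CPM in IMQ (-0.45, -0.79 to -0.12). Sele stood at 199 CPM in SBM (44 counts) and 82.0 CPM in IMQ (24 counts), a log2 ratio of 1.26 (0.53 to 2.06), and Selp at 90.3 CPM in SBM (20 counts) and 161 CPM in IMQ (47 counts), -0.81 (-1.66 to -0.05). The 2 selectins differed in opposite directions there. A single cell held 29.6% of the SBM and 25% of the IMQ Sele counts.

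Over all blood endothelial-like cells, Sele stood at 2053 CPM in SBM (848 counts, 1917 to 2196) and 1662 CPM in IMQ (1962 counts, 1590 to 1737), a log2 ratio of 0.30 (0.19 to 0.42). Selp stood at 4507 CPM in SBM (1862 counts, 4305 to 4717) and 2462 CPM in IMQ (2906 counts, 2373 to 2553), a log2 ratio of 0.87 (0.79 to 0.96). Selp was called higher, the only call among the 4 ligands, where 13.8% of 7833 measured genes were called higher and 18.6% lower. In the same cells haemoglobin genes stood at 53.3 CPM in SBM and 951 CPM in IMQ, T and NK cell markers at 254 and 749.8 CPM (10 and 12 of 12 with a count) and Langerhans cell markers at 1290 and 2858 CPM (7 and 9 of 9), and the part of these in the ratios was not tested. Icam1 stood at 983 CPM in SBM and 1073 CPM in IMQ (-0.13, -0.29 to 0.04) and Vcam1 at 387 CPM in SBM and 374 CPM in IMQ (0.05, -0.22 to 0.32). Vessel types were not in the same proportions in the 2 libraries: tip-like cells, low in selectins, were 51 of 248 SBM cells and 198 of 498 IMQ cells. With the sub-clusters of both libraries weighted as in the IMQ library, the log2 ratios were -0.09 for Sele, 0.08 for Selp and -0.42 for Vcam1, so the class-wide selectin ratios moved with the mix of vessel types. That weighting uses sub-clusters with as few as 4 SBM cells.

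Partner counts inside the endothelial class came mostly from 1 sub-cluster. Blood endothelial-like cells held 1 Selplg, 0 Itgal, 4 Itgb2 and 0 Itga4 counts in SBM, against 51, 18, 33 and 2 counts in IMQ. Sub-cluster 4 (4 SBM and 50 IMQ cells), led by Il17f, Cd69, Il17a and Cd207, held 36 of the IMQ Selplg, 11 of the Itgal and 22 of the Itgb2 counts, and 54 of the 94 IMQ Ptprc counts. Its IMQ cells carried 2537 CPM of Sele and 2832 CPM of Selp together with 2167 CPM of T and NK cell markers (12 of 12 with a count) and 13427 CPM of Langerhans cell markers (8 of 9). Without this sub-cluster the class-wide log2 ratios were 0.41 for Sele, 0.92 for Selp, -0.16 for Icam1 and -0.03 for Vcam1.

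Outside vessels, Icam1 was broad. Fibroblast-like cells had 520 CPM in SBM (2669 counts) and 507 CPM in IMQ (2401 counts), a log2 ratio of 0.04 (-0.04 to 0.12), and keratinocyte-like cells had 149 and 139 CPM (0.10, -0.01 to 0.21). In these 2 large classes Icam1 was level between the libraries within narrow intervals. It was lower in SBM in dermal papilla-like cells (215 CPM in SBM, 392 CPM in IMQ, -0.87, -1.21 to -0.53) and in melanocyte-like cells (181 and 350 CPM, 45 and 68 counts, -0.95, -1.53 to -0.39), the cells of the hair follicle base and of pigment. Vcam1 in fibroblast-like cells stood at 112 CPM in SBM and 143 CPM in IMQ (-0.35, -0.51 to -0.19). Pericyte and smooth muscle-like cells had 17 Vcam1 counts in SBM and 1 in IMQ. Sele in fibroblast-like cells had 6 counts in SBM (1.17 CPM) and 75 counts in IMQ (15.9 CPM), at or near the range set by free RNA.

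Macrophage and monocyte-like cells had Vcam1 at 51.1 CPM in SBM (55 counts) and 16.4 CPM in IMQ (44 counts), a log2 ratio of 1.63 (1.04 to 2.24), a direction opposite to that in venular-like cells. Resident dermal macrophage-like cells (286 in SBM, 515 in IMQ), named from markers such as Cd163, Cd209f and Folr2, held 29 and 16 of these counts, 68.4 CPM in SBM and 19.0 CPM in IMQ (1.83, 0.92 to 2.83). In sub-cluster 1 of the class the levels were 48.4 CPM in SBM and 51.4 CPM in IMQ. Sub-cluster 2 held 179 of the 286 SBM and 72 of the 515 IMQ resident-type cells. Its leading genes include Dcn, a fibroblast marker here, and fibroblast-like cells held the largest share of Vcam1 counts. No free RNA range was set for Vcam1, and the part of fibroblast RNA in these values was not tested. Macrophage Vcam1 is known in other tissues, including spleen and bone marrow. Thinned shares of cells with a Vcam1 count were 1.58% in SBM (0.816 to 2.74) and 0.754% in IMQ (0.390 to 1.31), whose intervals overlap, so the difference rests on few cells.

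**Figure D3:**
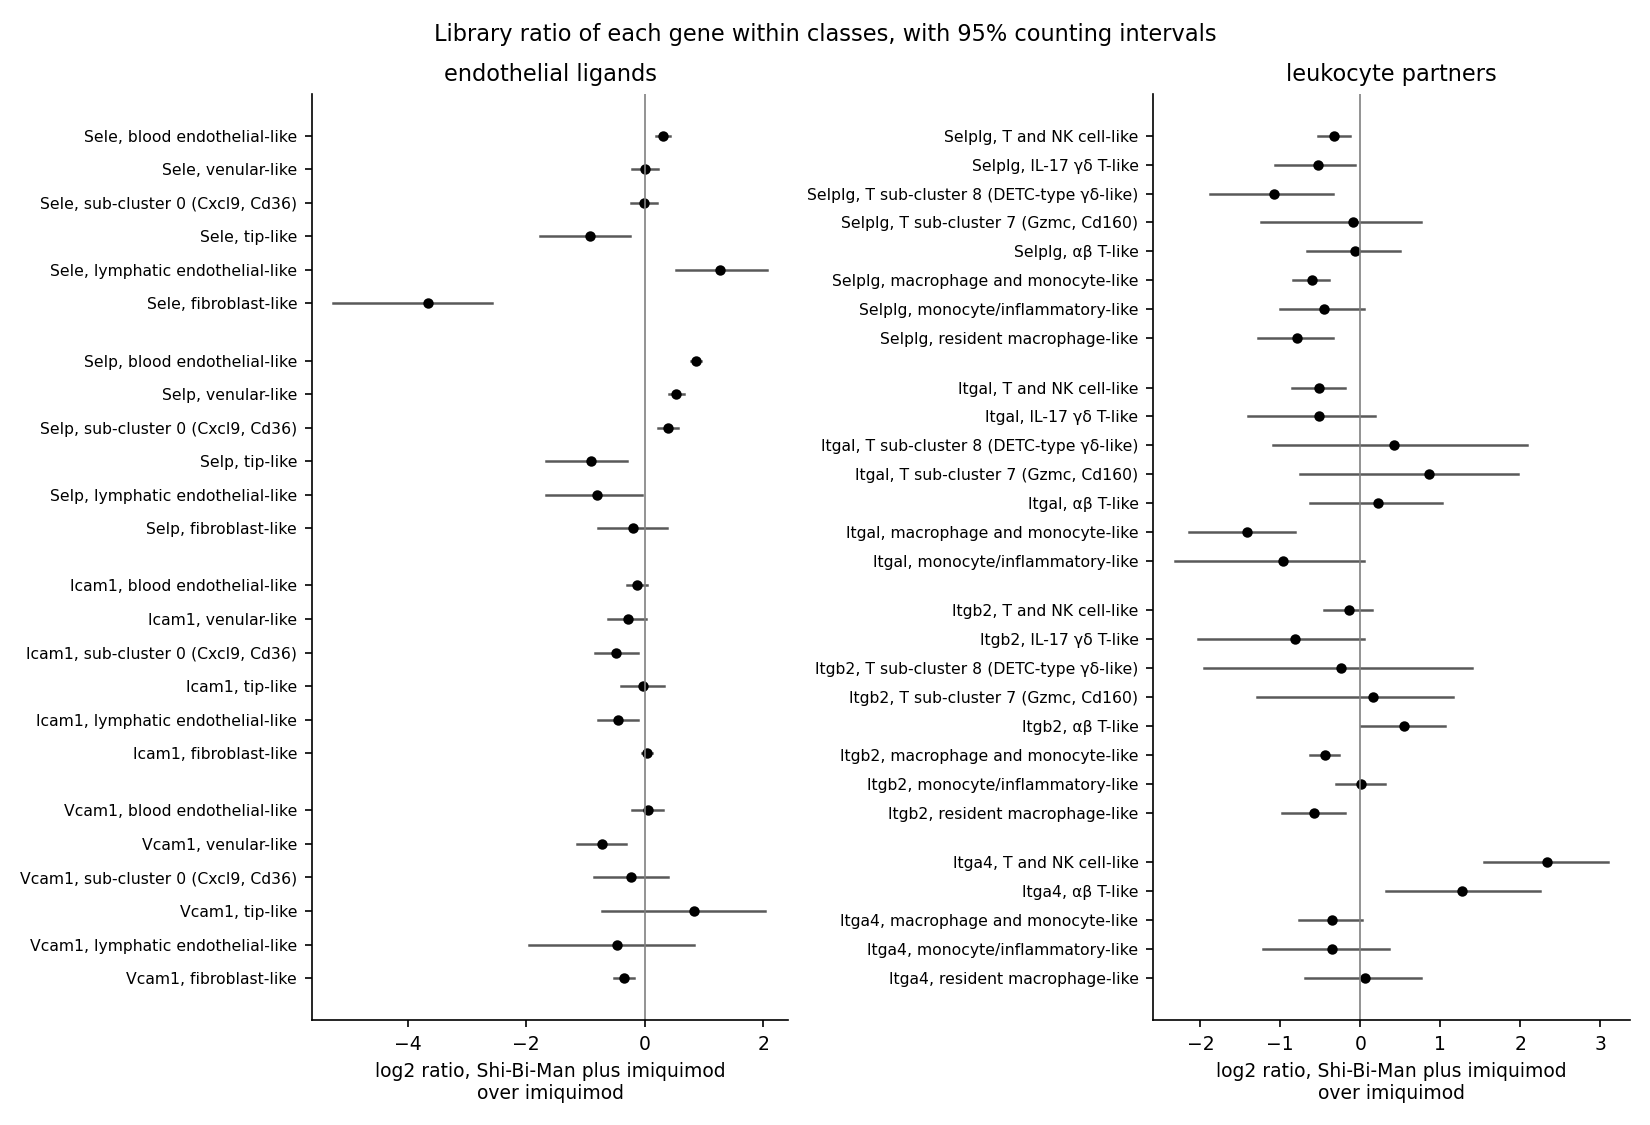
Points give the log2 ratio of SBM over IMQ (x axis) with its 95% counting interval, for ligands in vessel and stromal classes on the left and for partners in T cell and myeloid classes on the right. Selp lies to the right of 0 in venular-like cells (0.54) and Vcam1 to the left (-0.72), Selplg lies left of 0 in both gamma delta T cell-like types (-0.52 and -1.08), and Itga4 lies right of 0 in alpha beta T cell-like cells (1.27) with a wide interval.

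Among the partners, Selplg was the most widespread in T cells. In T and NK cell-like cells it stood at 481 CPM in SBM (235 counts, 421 to 546) and 602 CPM in IMQ (1862 counts, 575 to 630), a log2 ratio of -0.32 (-0.53 to -0.13), and after thinning it was found in 19.6% of SBM cells and 24.9% of IMQ cells. Itgal stood at 174 CPM in SBM (85 counts) and 249 CPM in IMQ (770 counts), a log2 ratio of -0.51 (-0.86 to -0.19). Itgb2, the chain that pairs with it, stood at 219 CPM in SBM and 242 CPM in IMQ (-0.14, -0.45 to 0.15). Itga4 went the other way, with 27 counts in SBM (55.2 CPM, 36.4 to 80.3) and 34 in IMQ (11 CPM, 7.62 to 15.4), a log2 ratio of 2.33 (1.54 to 3.10). It was the only partner called, 1 higher and 0 lower of 4, where 19.3% of 10517 measured genes were called higher and 15.9% lower. The Itga4 counts lay in 20 of 510 SBM cells and 29 of 2522 IMQ cells.

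The T cell types differed in which partners they carried. Alpha beta T cell-like cells (70 in SBM, 136 in IMQ), led by Gzma, Ccl5, Ccl4 and Cd8a, held 22 of the 27 SBM and 19 of the 34 IMQ Itga4 counts. Their Itga4 level was 314 CPM in SBM (197 to 475) and 129 CPM in IMQ (77.8 to 202), a log2 ratio of 1.27 (0.33 to 2.25). Itga4 was the fifth leading gene of that sub-cluster although it took no part in the clustering. IL-17-type gamma delta T cell-like cells had 0 Itga4 counts in SBM and 4 in IMQ, and dendritic epidermal-type cells 0 and 1. Sub-cluster 5 alone, here called alpha beta T cell-like, made up 70 of 510 SBM and 136 of 2522 IMQ T and NK cell-like cells. With the sub-clusters weighted as in the IMQ library, the class-wide Itga4 log2 ratio was 0.99 in place of 2.33. The unnamed sub-cluster 6 (99 and 379 cells) had similar receptor genes. In it the alpha chain gene Trac stood at 879 CPM in SBM and 832 CPM in IMQ, beside 970 and 864 CPM in sub-cluster 5. The gamma delta receptor gene Trdc stood at 55.7 and 242 CPM in sub-cluster 6, and at 14.3 and 81.6 CPM in sub-cluster 5. The Itga4 values are those of sub-cluster 5, not of all alpha beta T cells. Itgb2 in alpha beta T cell-like cells stood at 770.2 CPM in SBM (54 counts) and 531 CPM in IMQ (78 counts), a log2 ratio of 0.54 (0.01 to 1.06). Their Itgal (299.5 CPM in SBM, 259 CPM in IMQ) and Selplg (542 and 571 CPM) were level within intervals that span 0, -0.63 to 1.02 and -0.67 to 0.49.

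IL-17-type gamma delta T cell-like cells (82 in SBM, 1191 in IMQ), the largest T cell-like type of the IMQ library, had 3 of the 4 partners at countable levels. Selplg stood at 474 CPM in SBM (36 counts) and 691 CPM in IMQ (940 counts), a log2 ratio of -0.52 (-1.07 to -0.06). Itgal stood at 197 CPM in SBM (15 counts) and 291 CPM in IMQ (396 counts), -0.51 (-1.41 to 0.18), and Itgb2 at 119 CPM in SBM (9 counts) and 220 CPM in IMQ (299 counts), -0.82 (-2.03 to 0.05). All 3 values were lower in SBM, and the intervals of both LFA-1 chains span 0. Itgb2 was called lower and none higher, where 24.8% of 7179 measured genes were called higher and 25% lower. Their sub-clusters differed between libraries, with 28, 8 and 46 SBM cells and 417, 391 and 383 IMQ cells in sub-clusters 1, 3 and 4. They also held 0 haemoglobin counts in SBM and 10105 CPM of haemoglobin genes in IMQ, and the part of this in the ratios was not tested. Sub-cluster 1 was named from Il17a, Il17f and Ccr6. In it Trac stood at 767 CPM in SBM (23 counts) and 145 CPM in IMQ (79 counts), and Trdc at 2068 and 2074 CPM. Whether alpha beta T cells are among its SBM cells was not tested.

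A pair of T cell sub-clusters met the marker count for the dendritic epidermal type of gamma delta T cell, which lives within mouse epidermis, but only sub-cluster 8 had its receptor genes. In sub-cluster 8 (119 SBM and 113 IMQ cells, 6 of 9 markers) the gamma delta receptor gene Trdc stood at 9111 CPM in SBM and 5037 CPM in IMQ. In sub-cluster 7 (19 and 191 cells), led by Gzmc, Sh2d1b1 and Cd160, Trdc stood at 176 and 459 CPM, below Trbc2, a beta chain gene, at 821 and 1232 CPM, so sub-cluster 7 is called by its number. In the dendritic epidermal-type cells of sub-cluster 8, Selplg stood at 269 CPM in SBM (23 counts) and 575 CPM in IMQ (47 counts), a log2 ratio of -1.08 (-1.88 to -0.34). PSGL-1 transcript was therefore lower in SBM beyond counting error, on few counts. Itgal (10 and 7 counts) and Itgb2 (7 and 8 counts) had intervals of -1.09 to 2.08 and -1.95 to 1.40, too wide for an order. Haemoglobin genes stood there at 14335 CPM in SBM and 1027 CPM in IMQ, whose part in the ratio was not tested. In sub-cluster 7 Selplg stood at 587 CPM in SBM (10 counts) and 655 CPM in IMQ (167 counts), with an interval of -1.25 to 0.75, and Itgb2 at 411 and 392 CPM (7 and 100 counts). In the unnamed sub-cluster 2, with Il23r among its markers (103 and 269 cells), Selplg stood at 714 CPM in SBM and 594 CPM in IMQ (0.27, -0.16 to 0.67) and Itgal at 121 and 245 CPM (-0.98, -2.04 to -0.13). In the unnamed sub-cluster 6, led by Tnfrsf4 and Ctla4 (99 and 379 cells), Selplg stood at 545 CPM in SBM and 546 CPM in IMQ. The order of T cell types by Selplg with at least 50 cells in each library ran from sub-cluster 2 (714 CPM) to the dendritic epidermal type (269 CPM) in SBM and from the IL-17 type (691 CPM) to sub-cluster 6 (546 CPM) in IMQ, and the interval of each neighbour in either order overlapped the next.

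**Figure D4:**
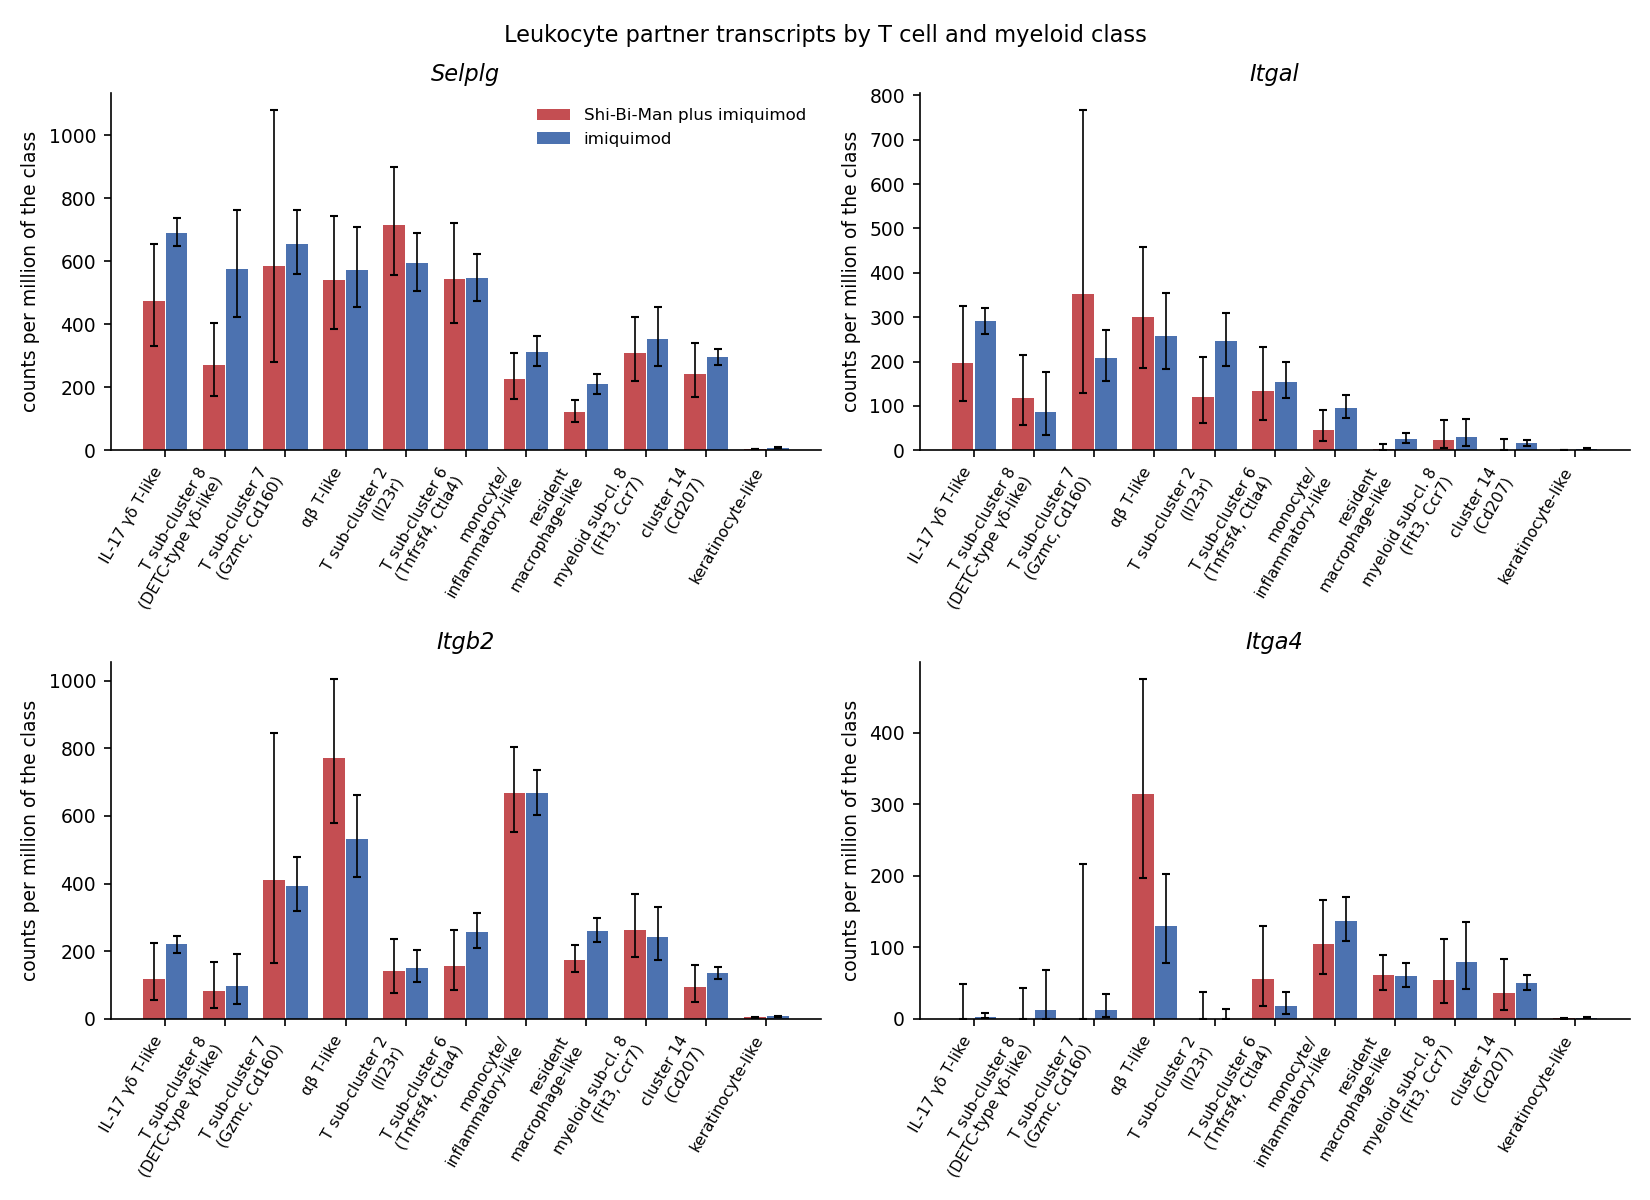
Bars give CPM of each leukocyte partner (y axis, 1 panel per gene) in T cell-like and myeloid-like types, cluster 14 and keratinocyte-like cells as a class that should lack them, with SBM bars left of IMQ bars and error bars for the 95% Poisson interval. Itga4 is tallest in SBM alpha beta T cell-like cells (314 CPM), and Itgb2 is tallest in alpha beta T cell-like and monocyte and inflammatory macrophage-like cells.

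In macrophage and monocyte-like cells the log2 ratios of all 4 partners were below 0, by different amounts. Itgb2, the shared chain of the beta 2 integrins, stood at 293 CPM in SBM (316 counts) and 399 CPM in IMQ (1070 counts), a log2 ratio of -0.44 (-0.63 to -0.26). Selplg stood at 193 CPM in SBM (208 counts) and 295 CPM in IMQ (789 counts), -0.61 (-0.84 to -0.39). Itgal stood at 21.4 CPM in SBM (23 counts) and 58.2 CPM in IMQ (156 counts), -1.42 (-2.15 to -0.81). The interval of Itga4, with 68.7 CPM in SBM and 88.5 CPM in IMQ, spans 0 (-0.36, -0.76 to 0.02). Selplg and Itgal were called lower, 2 of 4, and none higher, where 11.7% of 10561 measured genes were called lower and 13.5% higher. After thinning, Selplg was found in 8.79% of SBM and 12.5% of IMQ cells, Itgal in 0.787% and 3.33%, Itgb2 in 13.9% and 17.2% and Itga4 in 3.54% and 4.97%. Haemoglobin genes stood at 119 CPM in SBM and 2050 CPM in IMQ in this class, T and NK cell markers at 163 and 312 CPM (12 of 12 with a count in both) and neutrophil markers at 59.4 and 218 CPM (5 and 8 of 9), and the part of these in the ratios was not tested.

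Monocyte and inflammatory macrophage-like cells (98 in SBM, 357 in IMQ), with 9 of 11 of their markers at least 2-fold higher, had the highest Itgb2 of the myeloid types, 669 CPM in SBM (115 counts) and 667 CPM in IMQ (384 counts). Its log2 ratio was 0.01 (-0.31 to 0.31). This type set different sub-clusters against each other, with 69 SBM and 122 IMQ cells in sub-cluster 5, led by Ear2 and Lyz1, and 29 and 235 cells in sub-cluster 6. Itgb2 stood at 648 CPM in SBM and 665 CPM in IMQ in sub-cluster 5 (-0.03, -0.41 to 0.33) and at 781 and 668 CPM in sub-cluster 6 (0.26, -0.50 to 0.88). Sub-cluster 6 was led by Hdc, Slpi, Hp and Ly6c2, and its 10 leading genes also held S100a8 and S100a9, which neutrophils make in quantity. Neutrophil markers stood in it at 520 CPM in SBM (4 of 9 with a count) and 1202 CPM in IMQ (8 of 9), with Ly6g at 0 in both, and haemoglobin genes stood in the whole type at 17.5 CPM in SBM and 4301 CPM in IMQ. The part of these in the values was not tested. Selplg of the whole type stood at 227 CPM in SBM and 312 CPM in IMQ (-0.45, -1.001 to 0.04), Itgal at 46.5 and 95.5 CPM (8 and 55 counts) and Itga4 at 105 and 137 CPM (-0.36, -1.22 to 0.36). Resident dermal macrophage-like cells had Itgb2 at 174 CPM in SBM and 261 CPM in IMQ (-0.57, -0.98 to -0.19) and Selplg at 120 CPM in SBM and 210 CPM in IMQ (-0.79, -1.28 to -0.35). They had 1 Itgal count in SBM and 21 in IMQ, and level Itga4, 61.3 CPM in SBM and 59.2 CPM in IMQ (0.06, -0.69 to 0.76). In the unnamed sub-cluster 1 (163 and 245 cells) Selplg (177 CPM in SBM, 323 CPM in IMQ, -0.85, -1.48 to -0.29) and Itgb2 (237 and 396 CPM, -0.73, -1.27 to -0.24) were likewise lower in SBM. In the unnamed sub-cluster 8, with Flt3 and Ccr7, genes of dendritic cells, among its leading genes (74 and 95 cells), Selplg (309.9 CPM in SBM, 353 CPM in IMQ) and Itgb2 (263 and 243 CPM) were level within intervals of -0.80 to 0.42 and -0.59 to 0.81.

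The make-up of the myeloid class also differed between libraries. Sub-cluster 4, with Cxcl16 among its leading genes, held 4 SBM and 222 IMQ cells, and sub-cluster 2 of the resident type, led by Ccl8, held 179 SBM and 72 IMQ cells while sub-cluster 0 held 95 and 387. With sub-clusters weighted as in the IMQ library, the class-wide log2 ratios were -0.71 for Itgal and -0.02 for Itgb2, in place of -1.42 and -0.44. Cluster 14 had Selplg at 243 CPM in SBM (34 counts) and 297 CPM in IMQ (538 counts), -0.27 (-0.83 to 0.21), 0 and 28 Itgal counts, Itgb2 at 92.9 and 135 CPM, and 5 and 91 Itga4 counts. Mast cell-like cells numbered 16 and 44, with 3 and 8 Selplg counts. Outside the blood-derived classes, pericyte and smooth muscle-like cells had Itga4 at 48.7 CPM in SBM (12 counts) and 103 CPM in IMQ (43 counts), a log2 ratio of -1.04 (-2.14 to -0.13).

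Over all retained cells together, the totals of Selp, Icam1 and Vcam1 were within 1.5-fold between the libraries, and those of Sele and the partners were lower in SBM. The share of all genes past 1.5-fold was not computed over all retained cells, so these totals are given as values only. In CPM of the whole library, Selp stood at 104 CPM in SBM and 115 CPM in IMQ (-0.15, -0.23 to -0.07), Icam1 at 266 and 242 CPM (0.14, 0.09 to 0.19), Vcam1 at 44.4 and 45.0 CPM (-0.02, -0.14 to 0.11) and Sele at 45.4 and 76.2 CPM (-0.75, -0.86 to -0.64). Selplg stood at 27.8 CPM in SBM and 122 CPM in IMQ (-2.13, -2.27 to -2.01), Itgal at 6.31 and 37.5 CPM (-2.57), Itgb2 at 25.1 and 80.2 CPM (-1.68) and Itga4 at 8.37 and 16.2 CPM (-0.95). These totals combine the number of cells of a type with the level in them. The Sele total was lower in SBM while its level in venular-like cells was 3188 CPM in SBM and 3181 CPM in IMQ, and the T and NK cell-like share was 6.49% in SBM against 22.9% in IMQ.

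Genes whose products act together were also looked at within cells. In venular-like cells both selectins were found in 60.3% of SBM and 46.5% of IMQ cells after thinning, and in 75.9% and 69.0% without it, where the products of the single shares gave 69.6% and 59.8%. Icam1 with Vcam1 was found in 34.5% of SBM and 47.9% of IMQ venular-like cells without thinning. Both LFA-1 chains, Itgal and Itgb2, were found in 2.75% of SBM and 5.47% of IMQ T and NK cell-like cells without thinning, where the products gave 1.83% and 4.78%, and in 0.784% and 1.15% after it. Both VLA-4 chains, Itga4 and Itgb1, were found in 4 SBM and 8 IMQ T and NK cell-like cells. At these depths a cell without a count cannot be called negative. Itgam, the alpha chain of the other main myeloid beta 2 integrin, Mac-1, is listed at 0 in all 7863 SBM and 11019 IMQ cells. A value of 0 in every cell, myeloid cells included, cannot be read as absence of the transcript, and its cause was not tested. Fut7, the fucosyltransferase that completes selectin ligands on leukocytes, had 2 counts in SBM and 62 in IMQ, of which 2 and 49 lay in T and NK cell-like cells.

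The rest of the pathway was described by 8 lists, and their counts are read against the background shares given above. In blood endothelial-like cells, 1 of 7 measured selectin-ligand carriers was called higher and 0 lower (median log2 ratio -0.29), 1 of 11 glycan synthesis genes higher and 3 lower (-0.27), 0 of 9 other integrins higher and 2 lower (-0.05) and 1 of 6 other integrin ligands higher and 0 lower (-0.04), beside a median of -0.03 over all 7833 genes. Cd34, a sialomucin of endothelial cells, stood at 421 CPM in SBM and 629.5 CPM in IMQ (-0.58, -0.83 to -0.34). Icam2, a second LFA-1 ligand made by resting endothelium, stood at 300.2 CPM in SBM and 355 CPM in IMQ (-0.24, -0.54 to 0.05), and Itgb1 at 426 and 489.7 CPM (-0.20, -0.45 to 0.04). The intervals of Icam2 and Itgb1 span 0, and that of Cd34 does not. Tpst2, which sulphates tyrosines, stood at 46.0 CPM in SBM and 108 CPM in IMQ (-1.19, -2.01 to -0.52), St3gal4, a sialyltransferase, at 143 and 89.8 CPM (0.67, 0.18 to 1.14) and Jam2, a junctional ligand of VLA-4, at 448 and 316 CPM (0.50, 0.24 to 0.76).

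Of 17 measured transmigration and junction genes in the same cells, 2 were called higher and 1 lower (median -0.03). Ackr1, the chemokine-binding receptor of venules, stood at 1951 CPM in SBM and 1156 CPM in IMQ (0.76, 0.63 to 0.88), a direction shared with Selp in this class, and Mcam, a tip marker here, at 91.98 and 169 CPM (-0.87, -1.42 to -0.38). Ackr1, and Lifr named below, are venular markers here. Vessel types differed in proportion between the libraries, and the part of that mix in the ratios of these list genes was not tested. Of 13 integrin activation genes 1 was called higher and 4 lower (-0.10). Of 24 genes of the endothelial cytokine response, 4 were called higher and 4 lower (median 0.15). The NF-kappa B feedback gene Nfkbia stood at 5746 CPM in SBM and 5180 CPM in IMQ (0.15, 0.08 to 0.22) and Tnfaip3, another such gene, at 295 and 328 CPM (-0.15, -0.46 to 0.15), both close to level. The chemokine genes were split: Ccl2, which attracts monocytes, stood at 123 CPM in SBM and 608 CPM in IMQ (-2.29, -2.74 to -1.89) and Cxcl2, which attracts neutrophils, at 119 and 368 CPM (-1.62, -2.09 to -1.20), whereas Cxcl10, which attracts CXCR3-bearing T cells, stood at 804 and 369 CPM (1.13, 0.91 to 1.33). Socs3, a feedback gene of IL-6-type cytokines, stood at 1782 CPM in SBM and 816 CPM in IMQ (1.13, 0.99 to 1.27). Of 15 cytokine receptor genes 4 were called higher and 4 lower (0.25), and the 2 highest were Il6st and Lifr, subunits of IL-6-family receptors, at 1411 and 349 CPM in SBM and 727 and 194 CPM in IMQ (0.96 and 0.85).

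In T and NK cell-like cells, the lists gave 1 higher and 0 lower of 6 selectin-ligand carriers (median 0.02), 4 and 4 of 15 glycan synthesis genes (0.15), 4 and 4 of 13 other integrins (0.04), 3 and 1 of 6 other integrin ligands (0.44), 1 and 3 of 17 integrin activation genes (-0.08), 4 and 2 of 15 transmigration genes (-0.01), 4 and 3 of 24 cytokine response genes (0.21) and 1 and 1 of 13 cytokine receptors (0.16), beside a median of 0.04 over 10517 genes. Itgb7, which pairs with alpha 4 or alpha E, stood at 274 CPM in SBM and 424 CPM in IMQ (-0.63, -0.90 to -0.37). Itgb1, the beta chain of VLA-4, stood at 182 and 139.7 CPM (0.39, 0.04 to 0.71). Over the whole class the 2 possible partners of alpha 4 thus differed in opposite directions. Most Itga4 counts lay in alpha beta T cell-like cells, and the ratios of Itgb7 and Itgb1 were not taken there. Tln1, which encodes the talin that switches integrins on, stood at 200.4 CPM in SBM and 338 CPM in IMQ (-0.75, -1.07 to -0.46), Vav1, a signalling exchange factor, at 22.5 and 55.3 CPM (-1.24, -2.33 to -0.42) and Fyb, an adaptor of inside-out signalling, at 284 and 188 CPM (0.60, 0.32 to 0.86). Gcnt1, which builds the branched core of PSGL-1 sugars, stood at 63.4 CPM in SBM and 50.5 CPM in IMQ (0.35, -0.28 to 0.89). F11r and Cdh1, both epithelial junction genes, were among the integrin ligands called higher (1.25 and 0.87), and sub-cluster 9 of the class, led by Krt15 and other epithelial genes, held 10 SBM and 29 IMQ cells. T cell sub-clusters differed in proportion between the libraries, and the part of that mix in the ratios of these list genes was not tested.

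In macrophage and monocyte-like cells, 0 of 11 other integrins were called higher and 4 lower (median -0.22), and 0 of 6 other integrin ligands higher and 3 lower (-0.62), beside a median of 0.01 over 10561 genes. The members called lower included Itgax, the alpha X chain, at 42.7 CPM in SBM and 103 CPM in IMQ (-1.26, -1.75 to -0.82), Itga6 at 19.5 and 44.0 CPM (-1.15, -1.92 to -0.50), and Spp1, which encodes osteopontin, at 27.9 and 118 CPM (-2.06, -2.67 to -1.54). Itgb1 stood at 236 CPM in SBM and 256 CPM in IMQ (-0.12, -0.33 to 0.09). Alpha X pairs with beta 2, so an alpha chain of a second beta 2 integrin was lower beside Itgal. Selectin-ligand carriers gave 0 higher and 2 lower of 7 (0.05), among them Spn, or CD43, at 11.1 CPM in SBM and 39.6 CPM in IMQ (-1.78, -2.83 to -0.96). The other lists gave 1 and 1 of 13 glycan synthesis genes (0.15), 0 and 2 of 17 integrin activation genes (-0.12), 1 and 1 of 14 transmigration genes (-0.23), 3 and 4 of 26 cytokine response genes (0.25) and 3 and 1 of 16 receptors (-0.10). Cxcl16, named in the study's title and itself a transmembrane chemokine that can hold cells bearing CXCR6, stood at 148.5 CPM in SBM and 357 CPM in IMQ (-1.26, -1.51 to -1.02). Irf1 stood at 198 CPM in SBM and 106 CPM in IMQ (0.91, 0.64 to 1.17). Cxcl16 is a leading gene of sub-cluster 4 of this class, which held 4 SBM and 222 IMQ cells. Sub-clusters differed in proportion between the libraries, and the part of that mix in the ratios of these list genes was not tested.

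Across 22 cell classes in 2 libraries, 44 points that share 2 libraries and their depth, the pattern of each gene was matched to 11201 others by Pearson correlation of log2(CPM + 10). Sele was most like Selp (0.97), Ptprb (0.95) and Mmrn2 (0.94), and Selp was most like Sele (0.97), Vwf (0.93) and Ackr1 (0.93). Both selectin genes were thus each other's nearest match. Icam1 was most like Ltbp4 (0.87), Ramp2 (0.84) and Sntb2 (0.84), and Vcam1 most like Mx2 (0.85), Rnf213 (0.84) and Eng (0.84), with lower coefficients. Selplg was most like Cd52 (0.97), Mir142hg (0.97) and Coro1a (0.96), Itgal most like Klrk1 (0.95), Ptpn7 (0.94) and Ptpn22 (0.93), and Itgb2 most like Laptm5 (0.96), Arhgap45 (0.95) and Epsti1 (0.95). Itga4 was most like Ccl4 (0.84), Ccl3 (0.82) and Slamf7 (0.82). These coefficients describe cell-type patterns only.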

How the data were processed

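Dorsal skin of mice was profiled as 2 libraries, 1 per group, with 3' transcriptome sequencing per the labels' protocols. The deposited matrices hold raw whole-number counts per gene and cell barcode, and GRCm38 and mm10 are named per the submitters' processing notes. The aligner, the counter and any filter on barcodes are not given in the sources used here, and the lowest total per barcode was 500 counts in both libraries. Whether counts are collapsed molecules is not stated. Totals were 20837259 counts in the SBM library and 28920316 in the IMQ library.

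Barcodes with at least 200 genes and at most 20% mitochondrial counts were kept, and called doublets (Scrublet, expected rate 0.08) were left out. Cells were clustered with scanpy 1.11.5 (2000 variable genes, 30 components, 15 neighbours, Leiden resolution 1, no integration), leaving out the 8 genes and 5 of the 8 lists. Blood endothelial-, T and NK cell- and macrophage and monocyte-like cells were clustered again (1000 variable genes, 15 components, resolution 0.8), with settings chosen on marker support after the data were seen. A name needed 3 markers at least 2-fold higher and in at least 10% of cells, and no more markers of another type among the 10 leading genes. T cell sub-cluster 7 lost its name after its receptor genes were seen; in the likeness measure it stays pooled with sub-cluster 8. Counts were summed per class and library. CPM have exact Poisson intervals, ratios exact conditional binomial intervals after 0.5 was added to each count, and shares Clopper-Pearson intervals after thinning to 500 counts, which left out no cell. The scripts were tested on simulated data. Types were ordered by level where they had at least 50 cells in each library.

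The 8 genes, the lists and the tests were chosen with earlier results of these data known. Of each list, the text names from the 2 genes with the highest and the 2 with the lowest ratio among those with at least 50 counts, and from a fixed set (Itgam, Itgb1, Itgb7, Icam2, Cd34, Fut7, Gcnt1, Ackr1, Nfkbia and Tnfaip3, with 1 further gene not reported here). For each of the 8 genes it names the 3 genes most like it among those with at least 200 counts. Alternatives covered filters, doublets, scaling (edgeR 4.0.16 and DESeq2 1.42.0 factors), free RNA, clustering, thinning and list thresholds, and no differential test was run because each group is 1 library. Positions come from GENCODE vM21.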

Additional observations from a re-analysis of the deposited data

How the results depend on the processing

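The 12 class-wide log2 ratios (ligands in blood endothelial-like, partners in T and NK cell-like and in macrophage and monocyte-like cells) were recomputed under 15 or 16 alternatives each. No called value changed sign. Selp in blood endothelial-like cells ranged from 0.08 to 0.92, Itga4 in T and NK cell-like cells from 0.99 to 2.73, Selplg there from -0.46 to -0.28, and Selplg, Itgal and Itgb2 in macrophage and monocyte-like cells from -0.71 to -0.42, -2.03 to -0.71 and -0.58 to -0.02. The alternative that moved most ratios, chosen after seeing the data, weighted the sub-clusters of both libraries as in the IMQ library. It gave -0.087 for Sele, 0.083 for Selp and -0.42 for Vcam1 in blood endothelial-like cells, -0.56 for Itgb2 and 0.99 for Itga4 in T and NK cell-like cells, and -0.71 for Itgal and -0.024 for Itgb2 in macrophage and monocyte-like cells. By its construction it holds the mix of sub-clusters constant. Under it Selp in blood endothelial-like cells and Selplg in macrophage and monocyte-like cells (-0.42) were no longer 1.5-fold apart. The mean over cells gave 0.18 for Sele and -0.28 for Vcam1 in blood endothelial-like cells, and the cause was not tested. Values near 0 took either sign: Vcam1 kept its sign in 11 of 16 alternatives, Sele in 15 of 16 and Itgb2 in T and NK cell-like cells in 14 of 15, with 0.09 when cells needed 500 genes. In venular-like cells, IMQ Sele stood at 2882 CPM with sub-clusters at resolution 0.4 and SBM Selp at 8639 CPM at resolution 1.5, with other cells in the class. TMM and median-of-ratios scaling shifted every ratio of T and NK cell-like cells by -0.14 and -0.13, and those of the other classes by less than 0.1. Leaving out barcodes found in both libraries (added after seeing the data) left 246 SBM and 497 IMQ blood endothelial-like cells and gave 0.28 for Sele and 0.88 for Selp.

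Counts of list genes called depended on the thresholds. In blood endothelial-like cells, 14 were called higher, but 3 at 2-fold, and 18 lower, but 8 with at least 50 counts and 29 with at least 1 count. In T and NK cell-like cells, 22 were called higher, but 12 with at least 50 counts and 10 at 2-fold, and 18 lower, but 6 at 2-fold. In macrophage and monocyte-like cells, 8 were called higher, but 16 with at least 1 count and 3 at 2-fold. Of all comparisons of these main values with an alternative, 207 of 226 stayed within their interval or within 1.5 times the count, and among the thinned shares and single lists 94 of 192 did. No paired analysis was possible because each group is 1 library, and for the same reason no replicate could be left out. Depth limits the rarer genes: SBM T and NK cell-like cells held 27 Itga4 counts and SBM venular-like cells 70 Vcam1 counts.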
